A study of Mus musculus with 2 samples.

Results

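The small nuclear RNAs (snRNAs) U1, U2, U4, U5, U6 and U7 were examined in the mouse brain libraries of melRNA-seq, a method that sequences RNAs of medium length from end to end. They were chosen by name, as the RNA classes that the deposited lists call U1, U2, U4, U5, U6 or U7, and are 6 of the 60 classes listed in either library. Each of the 6 was listed in both libraries. Total RNA came from the brain of C57BL/6J mice, which the methods describe as adult males. The control library, RppH(−), was made from RNA without enzyme treatment, and the RppH(+) library from RNA treated with RNA 5′ pyrophosphohydrolase (RppH) (37 °C, 1 h). RppH removes phosphates, and with them a cap, from the 5′ end of an RNA, so that capped and triphosphate RNAs can take up the 5′ adaptor. The labels do not say how many animals gave the RNA or whether both libraries share it. Products with inserts of 113–253 bp were cut from a gel, and the sample labels give the RNA as 115–255 nt long. Each condition has 1 library, so no difference has a replicate check, and each interval below covers counting error only, for reads that PCR may have copied.

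U1, U2, U4, U5 and U6 are the RNA parts of the major spliceosome, the machine that removes introns from pre-mRNA. U1 pairs with the 5′ splice site and U2 with the branch site. U4 and U6 enter paired with each other in a particle that also holds U5, and U4 is then released so that U6 can build the catalytic core with U2. U7 is no part of the spliceosome and guides the cleavage of histone pre-mRNA at its 3′ end. U1, U2, U4, U5 and U7 are made by RNA polymerase II and carry a trimethylguanosine cap in their mature form. U6 is made by RNA polymerase III and keeps its triphosphate, with a methyl group on the outermost phosphate.

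Genes could be linked by symbol to 5 of the 6 classes, with no linked gene for U4. The GENCODE M21 transcript sequences (GRCm38) of U1, U2 and U7 are shown, 2 classes whose length lies inside the gel window and the shortest class, which lies below it, and the letters in capitals let each be recognised. Capitals mark the stretch that pairs with the target RNA (ACTTACC in U1 for the 5′ splice site, GTAGTA in U2 for the branch site, CTCTTTT in U7 for histone pre-mRNA) and the letters of the site for the Sm protein ring.
U1 (Rnu1a1): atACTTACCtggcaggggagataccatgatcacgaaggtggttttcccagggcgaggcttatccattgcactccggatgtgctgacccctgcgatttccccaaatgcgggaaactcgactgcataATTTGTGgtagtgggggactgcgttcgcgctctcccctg
U2 (Rnu2-10): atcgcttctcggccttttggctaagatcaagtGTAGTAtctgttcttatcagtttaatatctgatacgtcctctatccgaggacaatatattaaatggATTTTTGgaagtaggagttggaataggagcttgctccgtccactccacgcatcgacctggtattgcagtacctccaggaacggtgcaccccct
U7 (Rnu7): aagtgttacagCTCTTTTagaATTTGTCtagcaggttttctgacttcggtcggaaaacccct
The search for the Sm letters (ATTTTG or ATTTTTG or ATTTTTTG or ATTTGTG or ATTTGTC, on the RNA strand only) found ATTTGTG in U1, ATTTTTG in U2 and ATTTGTC in U7. Of all 1383 snRNA transcripts in GENCODE, of any length, 21.6% hold at least 1 of the 5 strings, 4.70% hold ACTTACC, 3.69% GTAGTA and 2.75% CTCTTTT.

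The U1 gene Rnu1a1 lies at chr11:87422867-87423030 on the plus strand, in an intron of Tex14, which has the same strand. It is 164 nt long. The 3 other linked U1 genes, Rnu1b1, Rnu1b2 and Rnu1b6, lie on chromosome 3, are 165 to 166 nt long and differ from Rnu1a1 by 7 to 8 single-base edits. The U2 gene Rnu2-10 starts at chr11:101658238 on the plus strand and is 187 nt long in RefSeq and 191 nt in GENCODE, which ends it at 101658428. The U5 gene Rnu5g is 116 nt long and the U6 gene Rnu6 is 107 nt long. The U7 gene Rnu7, 62 nt long, lies at chr6:124741225-124741286 on the minus strand and overlaps an exon of Grcc10. The Rnu1a1 sequence is shared by 7 GENCODE snRNA transcripts, itself included, and that of Rnu2-10 by 4, while that of Rnu7 occurs once. The lists give reads by class, and the values below cannot be assigned to a gene copy.

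The deposited values are reads per 1000000 reads of 5.8S rRNA, from which whole reads were recovered. The 5.8S rRNA, the reference of these values, was read 122146 times in the library without RppH treatment and 83291 times in the treated one. All listed classes together held 123532 and 210992 reads. A single read was worth 8.19 and 12 in the deposited unit. RNA BC1, a neuronal RNA of rodents looked for as a marker of brain, was not among the listed classes. The same holds for the 4 RNAs particular to the minor spliceosome, U11, U12, U4atac and U6atac. The lists can hold only names in the library that the authors used to annotate reads. Whether that library holds these names was not checked, so the RNAs may still have been present.

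With RppH, the 6 snRNA classes together held 88998 reads, more than 5.8S rRNA in the same library. They had held 348 reads without it. As a share of the listed reads, this was 0.282% without RppH (95% Wilson interval 0.254 to 0.313%) and 42.2% with it (42.0 to 42.4%). Per read of 5.8S rRNA, it was 0.00285 (95% exact Clopper-Pearson interval 0.00256 to 0.00317) and 1.07 (1.06 to 1.08). U2 alone was the most frequent class after 5.8S rRNA in the RppH(+) library, where it had 1.86 times the reads of 5S rRNA (95% exact interval 1.84 to 1.89). Without RppH the order was the opposite, with 2.50 times as many 5S as U2 reads (2.15 to 2.91).

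**Figure D1:**
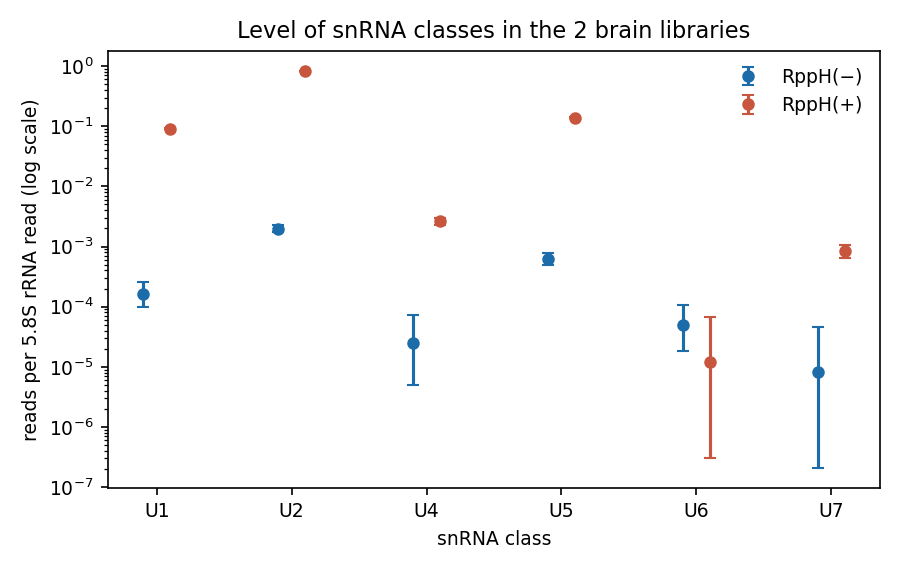
Reads of each snRNA class per read of 5.8S rRNA (log scale) in the RppH(−) and RppH(+) brain libraries. Points are single libraries and bars are 95% exact Clopper-Pearson intervals for counting error. U1, U2, U4, U5 and U7 are higher in the RppH(+) library, and the intervals of U6, with 6 reads and 1 read, overlap.

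Among the RNAs that first recognise an intron, U1 had 20 reads without RppH and 7543 with it. Its level per 5.8S read was 1.64e-04 (1.00e-04 to 2.53e-04) and 0.0906 (0.0884 to 0.0927). U1 was 553-fold higher with RppH (358 to 906, the exact 95% interval for an odds ratio conditional on the totals). U2 had 241 and 69519 reads, and its level rose from 0.00197 to 0.835 per 5.8S read. This is a 423-fold difference (373 to 482). The reads of U1 therefore stayed far below those of U2 in both libraries, while the difference between their ratios was within counting error, with U1 over U2 at 1.31 (0.827 to 2.18).

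Among the RNAs of the particle that joins later, U5, which holds the exon ends in place, had 77 reads without RppH and 11645 with it. Per 5.8S read this was 6.30e-04 (4.97e-04 to 7.88e-04) and 0.140 (0.137 to 0.143), a 222-fold difference (177 to 281). U4, the partner that keeps U6 inactive, had 3 and 221 reads, or 2.46e-05 (5.07e-06 to 7.18e-05) and 0.00265 (0.00231 to 0.00303) per 5.8S read. The ratio for U4 was 108 (36.5 to 528), and the Benjamini-Hochberg p of Fisher's exact test was 8.79e-81. U6, the RNA of the catalytic core, had 6 reads without RppH and 1 read with it. Its level was 4.91e-05 (1.80e-05 to 1.07e-04) and 1.20e-05 (3.04e-07 to 6.69e-05) per 5.8S read, and the ratio of the reads as counted was 0.244 (0.00531 to 2.01). With the 1 read set to 3 reads, the smallest level taken as measurable, it was 0.733. From the reads as counted, a difference of U6 between the libraries was not detectable relative to 5.8S rRNA (adjusted p = 0.544, Fisher's exact test).

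U7, the RNA of histone pre-mRNA processing, had 1 read without RppH and 69 with it. Its level per 5.8S read was 8.19e-06 (2.07e-07 to 4.56e-05) and 8.28e-04 (6.45e-04 to 0.00105). From the reads as counted the ratio was 101, and its interval of 17.6 to 4054 is wide because of the single read. The adjusted p of Fisher's exact test on the 1 and 69 reads was 2.48e-25. With the single read set to 3 reads, the ratio was 33.7.

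With RppH, 5 of the 6 classes were thus higher when p-values from a two-sided Fisher's exact test were adjusted by the Benjamini-Hochberg method over 59 classes, which are those listed other than 5.8S rRNA (threshold 0.05), and 0 were lower. U6 was the exception, with an unadjusted p of 0.253 in the same exact test. For U1, U2 and U5 the p was too small to be computed and the interval stands alone. The same 5 were at least 10-fold higher. Over all 59 classes, 22.0% were higher at an adjusted p under 0.05 and 1.69% lower, and 16.9% were at least 10-fold higher. Of these 59, 39 had 3 reads or fewer in each library and could form no ratio, and of the other 20 classes 65.0% were higher at that p and 50.0% at least 10-fold higher. The 59 and the 20 classes include the 6 snRNA classes. The median ratio was 165 over the 6 snRNA classes and 11.7 over the 20 classes with a ratio, where 3 reads or fewer in 1 library were set to 3 reads. From the reads as counted, it was 165 and 66.7 over the same classes, so that the median over the 20 depends on this floor. Some of the 20 had no read without RppH, and their ratio as counted was infinite. These tests compare the 2 libraries and not the conditions.

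**Figure D2:**
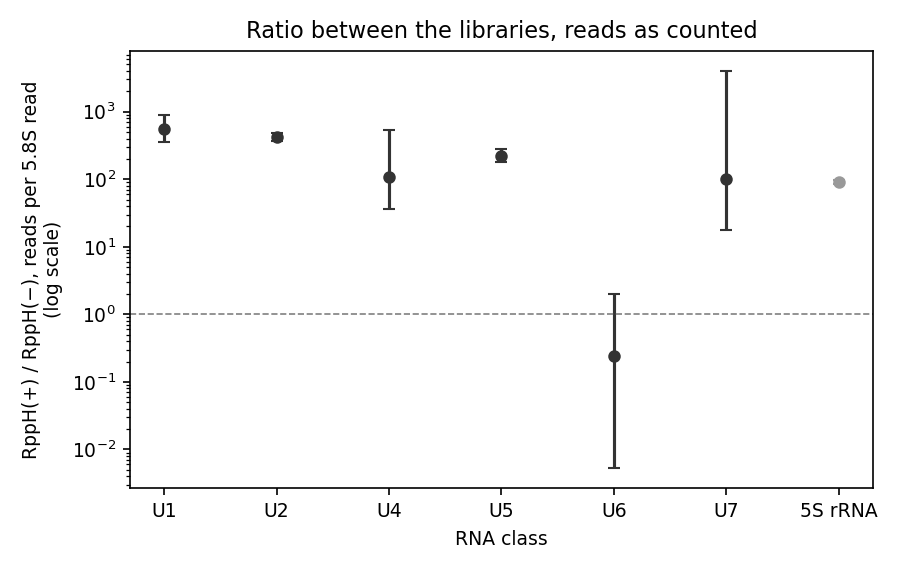
Ratio of the RppH(+) to the RppH(−) library in reads per 5.8S rRNA read, from the reads as counted (log scale), for the 6 snRNA classes and 5S rRNA. Bars are 95% exact intervals for counting error and the dashed line marks a ratio of 1. The intervals of U1, U2, U4, U5, U7 and 5S rRNA lie above 1, and that of U6, 0.00531 to 2.01, includes it.

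The snRNA classes were then compared with each other, from the reads as counted, so that the 5.8S reads cancel. Of the 15 pairs of classes, the interval of the difference in ratio excluded 1 in 7 and included it in 8. These are single intervals that were not widened for the number of pairs. Of the 7 pairs, 5 set U6 against each other class, and the remaining 2 concern U5. The ratio of U1 was 2.49 times that of U5 (1.51 to 4.31), and the ratio of U2 was 1.91 times that of U5 (1.45 to 2.48). The ratio of U2 was 1731 times that of U6 (208 to 79609). For U4 against U7, at 1.07, the interval of 0.0200 to 13.5 leaves room for a wide difference in either direction, since the RppH(−) library held 3 and 1 reads of them.

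5S rRNA, an RNA with a plain 5′ triphosphate, was 90.9-fold higher with RppH (83.8 to 98.7). Relative to it, and from the reads as counted, the ratio was 6.09 times as large for U1 (3.90 to 10.04), 4.66 times for U2 (4.0 to 5.43) and 2.44 times for U5 (1.92 to 3.14). For U4, at 1.19 (0.400 to 5.83), and U7, at 1.11 (0.193 to 44.7), no difference from 5S rRNA was detectable. U6, which like 5S rRNA comes from RNA polymerase III, was at 0.00269 of the 5S ratio (5.85e-05 to 0.0223), from 6 and 1 reads. Of the capped classes, U1, U2 and U5 thus lay above 5S rRNA. U4 and U7, with 3 reads and 1 read in the RppH(−) library, could not be told from it. The cap cannot be told apart from other properties in which these RNAs differ, such as length.

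Within the RppH(+) library, the order of the reads was U2, U5, U1, U4, U7 and U6, and each class differed from the next beyond counting error. U2 had 5.97 times the reads of U5 (5.85 to 6.09), U5 had 1.54 times those of U1 (1.5 to 1.59), and U1 had 34.1 times those of U4 (29.9 to 39.2). U4 had 3.20 times the reads of U7 (2.43 to 4.26), which had 69 against the single read of U6 (12 to 2764 times). In the RppH(−) library the order was U2, U5, U1, U6, U4 and U7. U2 had 3.13 times the reads of U5 (2.41 to 4.10), U5 had 3.85 times those of U1 (2.33 to 6.65), and U1 had 3.33 times those of U6 (1.29 to 10.1). The neighbours U6 and U4, and U4 and U7, could not be ordered with 6, 3 and 1 reads. The order of the top 3 classes was therefore the same in both libraries, and U6 was last with RppH, whereas without it U6 stood above U4 and U7 by reads.

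The assembled major spliceosome holds 1 copy each of U1, U2, U4, U5 and U6, which would put each of them at 1 read per U2 read if the libraries counted RNAs evenly and cells held them in equal number. In the RppH(+) library U5 had 0.168 reads per U2 read (95% exact interval 0.164 to 0.171) and U1 0.109 (0.106 to 0.111). U4 had 0.00318 (0.00277 to 0.00363) and U6 1.44e-05 (3.64e-07 to 8.01e-05). These 4 intervals lie below 1, as do those of the RppH(−) library, where U5 had 0.320 (0.244 to 0.415), U1 0.0830 (0.0498 to 0.131), U6 0.0249 (0.00905 to 0.0550) and U4 0.0124 (0.00255 to 0.0368). U7, which is outside this count, had 9.93e-04 per U2 read with RppH (7.72e-04 to 0.00126) and 0.00415 without it (1.05e-04 to 0.0233). U4 and U6, which pair in equal number, had 221 reads and 1 read with RppH, a ratio of 221 (39.3 to 8768), while the 3 and 6 reads without RppH were not detectably unequal. The method reads an RNA from one ligated end to the other, so the reads were not divided by length. Whether the reads of these classes are whole RNAs or pieces was not tested, since the lists give no read lengths. Dividing by gene length would set U5 at 0.270, U1 at 0.124 and U6 at 2.51e-05 per U2 read in the RppH(+) library, still below 1.

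**Figure D3:**
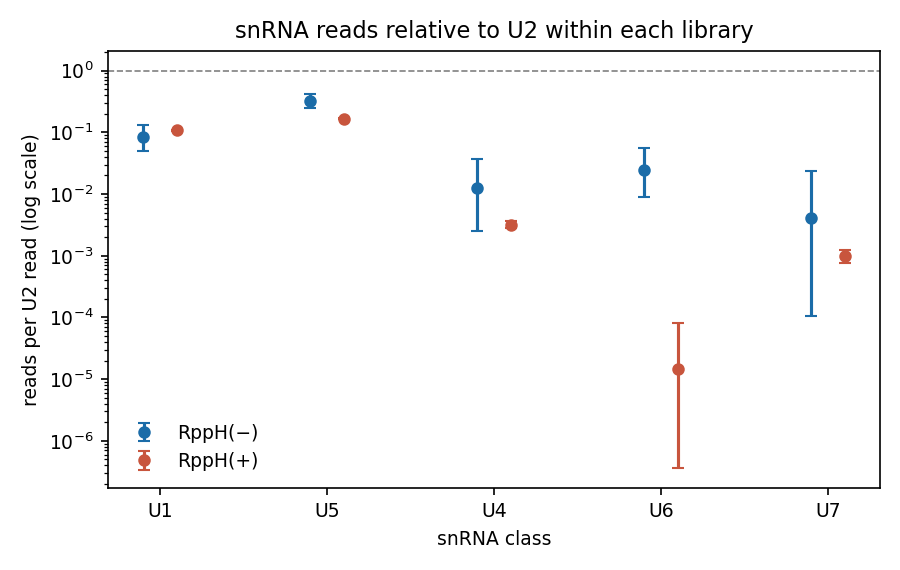
Reads of 5 snRNA classes per U2 read (log scale) within the RppH(−) and the RppH(+) brain library, with 95% exact Clopper-Pearson intervals. The dashed line marks 1 read per U2 read. All 10 intervals lie below it, and U6 spans 0.00905 to 0.0550 without RppH and reaches no higher than 8.01e-05 with it.

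The composition of the snRNA reads also differed between the libraries. U2 made up 69.3% of them without RppH (95% Wilson interval 64.2 to 73.9%) and 78.1% with it (77.8 to 78.4%). The share of U5 was 22.1% (18.1 to 26.8%) without RppH and 13.1% (12.9 to 13.3%) with it, and that of U1 was 5.75% (3.75 to 8.71%) and 8.48% (8.29 to 8.66%). The intervals of U2 and U5 do not overlap between the libraries and those of U1 do. U4, U6 and U7 together held 10 of 348 reads without RppH, or 2.87% (1.57 to 5.21%), and 291 of 88998 with it, or 0.327% (0.292 to 0.367%). U6 alone, with 6 reads and 1 read, went from 1.72% (0.793 to 3.71%) to 0.00112% (1.98e-04 to 0.00636%). The shares within a library are tied to each other, so the share of a class falls when the reads of other classes rise. Relative to 5.8S rRNA, a difference of U6 between the libraries was not detectable.

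The annotated lengths were set beside the insert window of 113–253 bp. U1 (164 nt) and U2 (187 nt) lie 51 and 74 nt above its lower limit, and U5 (116 nt) lies 3 nt above it. U6 (107 nt) is 6 nt shorter than the limit and U7 (62 nt) is 51 nt shorter. In the RppH(+) library the 3 classes inside the window had 7543 to 69519 reads, and the 2 classes below it had 1 and 69. In the RppH(−) library the same 3 had 20 to 241 reads, and the 2 below had 6 and 1. U5, the shortest of the 3 inside, had more reads than U1 in both libraries. Of the 2 outside, the shorter U7 had 69 times the reads of U6 in the RppH(+) library, while in the RppH(−) library U6 had 6 reads and U7 had 1. Over these 5 points, which share their library and differ in RNA as well as in length, the part of the gel window in the read numbers was not tested. The lists give no read lengths.

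**Figure D4:**
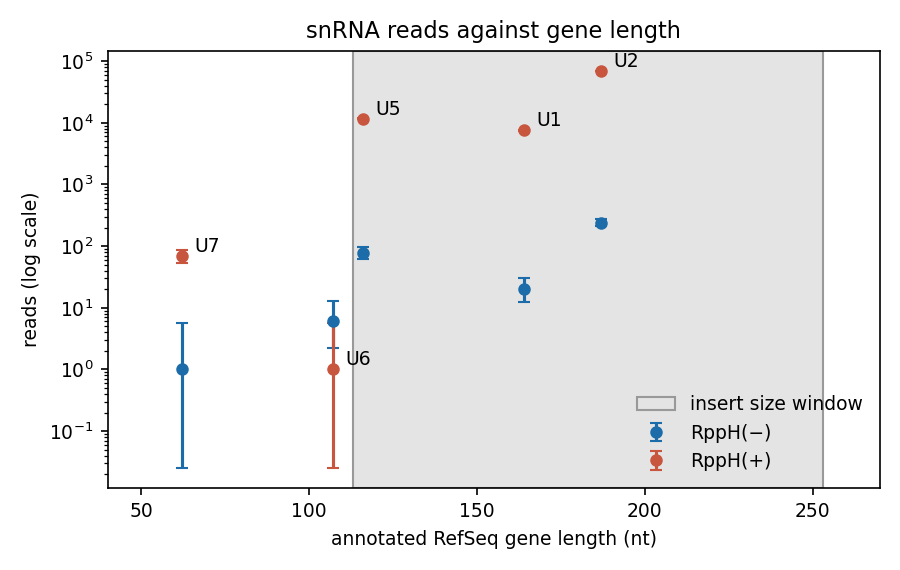
Reads of U1, U2, U5, U6 and U7 (log scale) against the RefSeq length of the linked gene in nt, in the RppH(−) and RppH(+) libraries, with 95% exact Poisson intervals and the insert window of 113–253 bp shaded. U1, U2 and U5 lie inside the window, and in each library they lie above U6 and U7, which have 6 reads and 1 read without RppH and 1 and 69 with it.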

How the data were processed

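Medium-length RNA of mouse brain was sequenced in 2 libraries, 1 with and 1 without RppH. Per the labels and methods, the authors removed the adaptor by cutadapt, kept only reads that had contained it, and annotated these by repeatmasker after adding 5.8S rRNA to its library (versions not given in the sources used here). The deposited score of a class is its reads per 1000000 5.8S reads, written as a whole number. The design had assumed read counts. Whole reads were therefore recovered by trying 5.8S totals from 1000 to 400000 with decimals dropped. All 33 RppH(−) values were whole at totals of 122144 to 122149, of which 122146 was used, and all 49 RppH(+) values at 83291. Larger totals that fitted gave whole multiples of these reads. With rounding, at most 31 and 48 values were whole.

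Ratios between libraries are relative to 5.8S reads, with a class at 3 reads or fewer in 1 library set to 3 reads. Tests, intervals, comparisons between classes or with 5S rRNA, and the plot of ratios use the reads as counted. Fisher's exact test, two-sided, was adjusted by the Benjamini-Hochberg method over 59 classes, in SciPy 1.17.1 with NumPy 2.4.6, Python 3.11.15 and Matplotlib 3.10.9, after both steps had been tested on simulated data. All 6 classes are named, with 5.8S and 5S rRNA as references. The alternatives were other denominators, a pseudocount of 0.5 reads, a minimum of 10 reads, U1 as reference, other totals and intervals for the shares, the deposited values and GENCODE lengths. Reads as counted and reads divided by length were added after the data were seen. Members and lists were chosen with earlier results of these data known. Gene positions come from RefSeq (GRCm38.p6) and GENCODE M21, on the assembly that the authors' methods call mm10. The sequences of U5 and U6 are not reported here. No replicate model could be fitted.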

Additional observations from a re-analysis of the deposited data

How the results depend on the processing

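Relative to all listed reads or in raw reads, U1, U2, U4, U5 and U7 stayed higher with RppH, at 13.5 to 221 and at 23.0 to 377 with the 1 read of U7 set to 3 reads, or at 40.4 to 221 and at 69 to 377 from the reads as counted. Relative to all listed reads U6 was lower at 0.0976 from the reads as counted (Fisher's exact test, adjusted p = 0.0447), or at 0.293 with its 1 read set to 3 reads, so that 1 of the 6 classes and 4 of the 59 were lower. This denominator multiplies each ratio by about the same factor. Relative to 5S reads, whose own ratio was 90.9, U4 was at 1.19 and no longer called. With their 1 read set to 3 reads, U7 was at 0.371, below 1 through this floor alone and no longer called, and U6 was lower at 0.00807. From the reads as counted, U7 was at 1.11 and U6 at 0.00269. There 3 snRNA classes were higher at an adjusted p under 0.05 and 1 lower, 0 were at least 10-fold higher and 1 at least 10-fold lower, against 4 higher and 6 lower of all classes, with 0 and 9 past 10-fold. Dividing by 5S lowers each ratio by the 5S ratio itself.

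With a pseudocount of 0.5 reads, 16 classes were at least 10-fold higher, and the interval excluded 1 in 11 of the 15 pairs in place of 7. The 4 added pairs set U1 and U2 against U4 and U7, which had 3 reads and 1 read without RppH, and a normal approximation replaced the exact interval. Per 5S read, the 6 classes together were at 0.578 without RppH and 2.39 with it, and with RppH at 0.422 per listed read. With U1 as reference, 2 classes of the major spliceosome were below it in each library, since U2 and U5 lie above U1. Of all listed reads U2 made up 0.195% and 32.9%. The U2 gene is 191 nt long in GENCODE. The deposited values changed no direction or call for the 6 classes. The 3 reads of U4 and the single reads of U6 and U7 set the widest intervals. No paired analysis was possible because there is only 1 library for each treatment.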
